A study of Mus musculus with 10 samples.

Results

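Ribosomal protein genes, the genes for the structural proteins of the cytoplasmic ribosome, were followed through chromatin accessibility maps of mouse regulatory T (Treg) cells. Members were all protein-coding genes of GRCm38 whose symbol has the form of a ribosomal protein name, such as Rpl38, Rps6 or Rplp0, without the Rps6k kinases. This gave 83 genes, of which 50 encode large subunit proteins, 30 encode small subunit proteins and 3 (Rplp0, Rplp1 and Rplp2) encode the stalk that binds translation factors. A region was assigned to a member if it overlapped the gene span or lay within 1 kb of it. Of the 77076 regions counted in the study 117 (0.152%) were so assigned, and they belonged to 79 of the 83 genes.

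Treg cells restrain immune responses. They are commonly divided into central cells (cTreg), which recirculate through lymphoid organs, and effector cells (eTreg), which have been activated. Fntb is the gene for the beta chain of farnesyltransferase, which adds a farnesyl lipid to RAS and other signalling proteins. The study used ATAC-seq, in which a transposase cuts open chromatin, to compare 4 groups of Treg cells from mixed bone marrow chimeras, mice rebuilt with marrow of more than 1 donor, with spleen and lymph nodes as the source. The groups were WT cTreg (3 libraries), WT eTreg (3 libraries), Fntb-deficient cTreg (FntbKO cTreg, 2 libraries) and Fntb-deficient eTreg (FntbKO eTreg, 2 libraries). All groups came from such chimeras; the Cre driver or other means of deletion, the age of the mice and the number of mice per library are not given in the sources used here. Because nothing in the labels says that libraries came from separate mice, p-values measure the spread between these libraries, which may in part be technical.

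Ribosomal proteins are made in near-equal amounts, although their genes are scattered over the genome, and their transcripts are among the most abundant in a growing cell. Most of their promoters lie in open chromatin in every cell type. Many ribosomal protein messages begin with a C followed by a run of pyrimidines, the 5′ terminal oligopyrimidine tract, through which mTORC1 and LARP1 control their translation, so that output can shift without a change at the promoter. T cells raise ribosome production when activated.

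Sequences around the start site were taken for members whose group comparisons are described in detail (Rpl38, Rpl28, Rpl31, Rpl37, Rpl13 and Rpl7l1), for Rpl15, which had the second highest accessibility, and for 3 members with the rarest of the motifs searched (Rps6, Rpl26 and Rps19). Each run holds 100 bases before the annotated start and 15 bases from it, 5′ to 3′ on the gene's strand. Capitals mark CCGGAAG, the core bound by ETS family factors such as GABP, the palindrome of TCTCG joined to its reverse complement CGAGA, found at housekeeping promoters, and the tract of a C and pyrimidines that begins at the annotated start. Sequences are from RefSeq (GRCm38.p6), at chr11:114668480-114668594 for Rpl38, plus strand, chr7:4792865-4792979 for Rpl28, plus strand, chr1:39367751-39367865 for Rpl31, plus strand, chr15:5116513-5116627 for Rpl37, plus strand, chr8:123102250-123102364 for Rpl13, plus strand, chr17:46782642-46782756 for Rpl7l1, minus strand, chr14:18270972-18271086 for Rpl15, minus strand, chr4:86857353-86857467 for Rps6, minus strand, chr11:68901466-68901580 for Rpl26, plus strand, chr7:24884492-24884606 for Rps19, plus strand.
Rpl38: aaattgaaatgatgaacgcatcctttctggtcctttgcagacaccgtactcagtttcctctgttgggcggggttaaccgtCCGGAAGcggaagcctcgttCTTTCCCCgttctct
Rpl28: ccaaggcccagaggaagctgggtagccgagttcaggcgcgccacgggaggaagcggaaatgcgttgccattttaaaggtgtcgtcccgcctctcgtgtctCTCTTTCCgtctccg
Rpl31: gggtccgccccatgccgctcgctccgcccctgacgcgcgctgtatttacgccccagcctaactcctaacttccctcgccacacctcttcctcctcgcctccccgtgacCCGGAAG
Rpl37: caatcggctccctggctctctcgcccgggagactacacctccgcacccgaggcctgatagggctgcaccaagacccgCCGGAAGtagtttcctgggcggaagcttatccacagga
Rpl13: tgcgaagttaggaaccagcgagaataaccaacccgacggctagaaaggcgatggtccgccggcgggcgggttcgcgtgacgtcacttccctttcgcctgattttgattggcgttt
Rpl7l1: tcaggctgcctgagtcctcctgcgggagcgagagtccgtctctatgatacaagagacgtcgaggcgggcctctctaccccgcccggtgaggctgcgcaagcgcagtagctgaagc
Rpl15: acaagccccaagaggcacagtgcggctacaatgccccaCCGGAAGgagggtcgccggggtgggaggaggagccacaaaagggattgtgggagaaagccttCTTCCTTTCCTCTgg
Rps6: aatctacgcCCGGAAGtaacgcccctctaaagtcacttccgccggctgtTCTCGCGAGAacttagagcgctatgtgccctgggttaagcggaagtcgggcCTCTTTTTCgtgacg
Rpl26: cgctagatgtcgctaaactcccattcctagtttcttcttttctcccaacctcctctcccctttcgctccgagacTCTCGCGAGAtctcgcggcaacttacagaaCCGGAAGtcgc
Rps19: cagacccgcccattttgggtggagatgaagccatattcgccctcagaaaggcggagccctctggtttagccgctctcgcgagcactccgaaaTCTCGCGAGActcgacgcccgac

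An entry with an annotated start was found for 63 of the 83 members, and motifs were counted in the 300 bases from 250 before to 50 after that start, on both strands. CCGGAAG occurred in 24 of the 63 members (38.1%) against 12.9% of the 17492 genes with an entry. The TCTCG palindrome occurred in 6 members (9.52%) against 0.755% of genes, namely Rpl10a, Rpl12, Rpl26, Rps19, Rps28 and Rps6. A C followed by at least 4 pyrimidines stood exactly at the annotated start of 14 members (22.2%) against 2.67% of genes. Rps6, whose protein is the classical target of S6 kinase, carried all 3 of these features. The TATA sequence TATAAA was found in 8 members (12.7%) against 14.8% of genes, CCAAT in 19 (30.2%) against 42.3%, the SP1 core GGGCGG in 38 (60.3%) against 49.2%, and the YY1 sequence AAGATGGCG in 4 (6.35%) against 2.14%. These shares describe the letters in the window and were not tested.

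Group differences of members with and without a motif were set side by side. For CCGGAAG, the median log2 fold change of FntbKO cTreg over WT cTreg was 0.09 in the 22 members with the motif and a region and 0.10 in the 37 without it. For the tract at the start the corresponding medians were 0.06 in 13 members and 0.12 in 46. The median level of the most covered region was 53.6 CPM per kb (depth-scaled counts, CPM, divided by the width of the region) with CCGGAAG and 45.5 without it, and 21.8 in the 6 members with the palindrome against 51.8 in the other 53. None of these medians was tested.

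Library totals ran from 5058328 to 15328775 counts. Between 66.7% and 79.2% of counts in a library were even, a pattern expected where both mates of a read pair are counted. The region at the start of Fntb (chr12:76837192-76837915) had 29.2 to 36.8 CPM in WT cTreg, 29.4 to 30.3 in WT eTreg, 11.1 to 13.1 in FntbKO cTreg and 7.47 to 11.6 in FntbKO eTreg, so the genotypes did not overlap. Of the 5 Treg genes looked up 4 had a region, and all 6 T cell genes had one. Each of these 2 sets was covered in every library. Since a Treg gene also had no region, lack of a region does not show that a cell type is absent. The range was 26.0 to 35.1 CPM in 1 of 3 regions of Foxp3 and 40.1 to 50.4 in 1 of 3 of Cd4. Ms4a1 of B cells, Ncr1 of NK cells, Lyz2, Csf1r and Adgre1 of myeloid cells and Hba-a1 of erythroid cells had no region. Cd8a had 0 to 3.07 CPM in 1 of 2 regions. Other genes of these cell types were covered in every library, with 8.93 to 13.6 CPM in 1 of 6 regions of Pax5 and 5.94 to 9.05 in 1 of 2 of Cd79a. The range was 3.95 to 13.1 in the region of Cd8b1, 1.91 to 4.01 in 1 of 6 of Itgam and 10.9 to 19.3 in the region of Klf1. Summed CPM per library ran from 35.5 to 50.5 for B cell genes (8 regions) and from 29.4 to 52.1 for CD8 T or NK cell genes (7 regions). It ran from 61.4 to 83.4 for myeloid genes (13 regions) and from 21.2 to 30.4 for erythroid genes (4 regions). For T cell genes (24 regions) it ran from 386 to 496. On the first principal component of all regions WT cTreg 2 (9.01) lay past FntbKO eTreg 1 (0.685), within the range of the eTreg libraries. FntbKO cTreg 1 (-155) was the cTreg library farthest from the eTreg libraries. The part of these library differences in the results below was not tested, except where values without these libraries are given.

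Of the 79 genes with a region 46 had 1, 28 had 2, 4 had 3, and Rps15a had 4. A single region lay within reach of neighbouring members and was counted for each of them. The 4 members without a region were Rps25, a small subunit gene whose nearest region lay 1.97 kb away, Rpl32l (3.13 kb), and the copies Rpl10l (190 kb) and Rpl39l (112 kb), which are known for expression in the male germ line. In 54 of the 59 members with both a region and an annotated start, the most covered region held that start. Member regions had a median width of 551 bp and the most covered ones 677 bp, against 354 bp over all tested regions and 696 bp over the 8770 regions that hold the start of a protein-coding gene. Of the member regions 17 also held, or only held, the start of a neighbouring protein-coding gene. Among the 57 regions with a member's own start, 9 (15.8%) were shared in this way, against 8.02% of start regions with at least 2 gene starts. Accessibility in such a region cannot be divided between Rpl12 and Lrsam1, Rpl7a and Med22, Rps28 and Ndufa7, or Rpl36al and Mgat2. The region counted for Rpl3l, a muscle paralogue of Rpl3, lay at the start of Msrb1, 3587 bp from the start of Rpl3l itself.

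Accessibility per length differed widely among members although their proteins are needed in like amounts. The mean of the 4 group means in the most covered region had a median of 45.9 CPM per kb over the 79 members and ran from 7.76 to 222. It was above the median of all tested regions (13.5 CPM per kb) in 76 members. In 41 it was above the median of start regions (41.5 CPM per kb), so the members lay near start regions rather than above them. The highest levels were those of Rpl37 (222 CPM per kb), Rpl15 (187), Rpl35 (151), Rps14 (128) and Rplp0 (126). The lowest were those of Rpl23 (7.76), Rpl19 (8.30), Rpl35a (9.96), Rpl7l1 (14.5) and Rps10 (16.3), all core proteins except Rpl7l1, a paralogue of Rpl7. The regions of Rpl37, Rpl15 and Rpl35a each also overlap a neighbouring protein-coding gene, so their levels cannot be assigned to the member alone. The median was 39.7 CPM per kb for 47 large subunit genes, 46.6 for 29 small subunit genes and 41.2 for the 3 stalk genes. The other 38 member regions had a median of 16.3 CPM per kb.

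**Figure D1:**
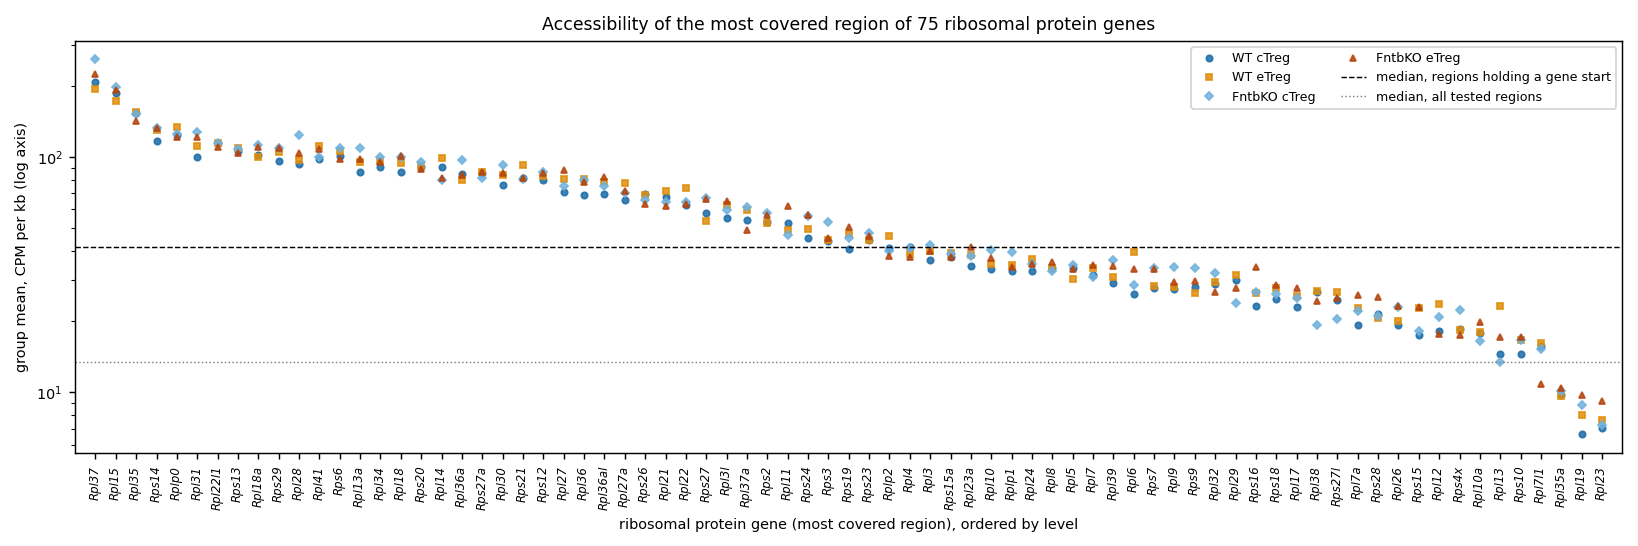
Group mean accessibility (CPM per kb of region, log axis) of the most covered region of 75 ribosomal protein genes, ordered by the mean of the 4 groups; symbols are groups, and lines mark the medians of regions holding a gene start (41.5, dashed) and of all tested regions (13.5, dotted). The 4 symbols of a gene lie close together, while genes run from 7.76 to 222.

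The top of the order was read library by library in CPM, since the regions of Rpl37 (551 bp) and Rpl15 (557 bp) have nearly the same width. Rpl37 had 122, 102 and 119 CPM in WT cTreg, 117, 101 and 102 in WT eTreg, 160 and 125 in FntbKO cTreg, and 138 and 110 in FntbKO eTreg. Rpl15 had 113, 92.5 and 106 CPM in WT cTreg, 104, 88.6 and 95.3 in WT eTreg, 123 and 98.2 in FntbKO cTreg, and 116 and 97.3 in FntbKO eTreg. Within each library Rpl37 lay above Rpl15. Their ranges over the libraries of a group overlapped in 3 of the 4 groups and stood apart narrowly in FntbKO cTreg. At the other end Rpl23, in a region of 755 bp, had 3.91, 4.81 and 7.29 CPM in WT cTreg, 3.86, 7.96 and 5.43 in WT eTreg, 5.6 and 5.31 in FntbKO cTreg, and 7.41 and 6.39 in FntbKO eTreg, and every library was below every library of Rpl15. Together the 117 regions took 0.316% to 0.331% of all counts in WT cTreg, 0.338% to 0.347% in WT eTreg, 0.340% to 0.354% in FntbKO cTreg and 0.339% to 0.346% in FntbKO eTreg. The WT cTreg libraries were thus the lowest by a small margin, and the other 3 groups overlapped. In bulk libraries, fewer cells with an open region and less opening per cell cannot be told apart.

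The first comparison asks how the loci differ between effector and central Treg cells in WT. No member region passed edgeR's quasi-likelihood test at an adjusted p of 0.05 (0 of 117), against 3.44% of the 76216 tested regions and 1.14% of start regions; DESeq2 and limma with cyclic loess scaling also called 0. At an unadjusted p under 0.05 there were 7 member regions, all higher in eTreg (5.98%). Over all tested regions 18.0% had such a p, 9.13% higher and 8.91% lower, and over start regions 11% had one. The median log2 fold change over the 117 regions was 0.08, beside -0.01 for all tested regions and 0.05 for start regions. It was 0.05 without WT cTreg 2, 0.14 without WT cTreg 1 and 0.12 without WT eTreg 2. Of the 79 most covered regions 62 lay above 0, in a comparison where the median of start regions also lay above 0. The groups did not overlap in 16 member regions (13.7%), all higher in eTreg; over all tested regions 21.9% did not overlap and 10.7% were higher.

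Among the most covered regions the widest subset differences in WT were at 2 large subunit genes. The start region of Rpl13 (chr8:123102173-123102749) had 6.42, 8.94 and 9.71 CPM in WT cTreg, 13.0, 10.6 and 16.6 in WT eTreg, 7.38 and 8.17 in FntbKO cTreg, and 9.21 and 10.6 in FntbKO eTreg. All eTreg libraries of WT lay above all WT cTreg libraries, with a log2 fold change of 0.66 (SE 0.22, 95% interval 0.20 to 1.12) and an edgeR adjusted p of 0.0984. Rpl6 (chr5:121204282-121204655) had 9.21, 7.91 and 12.3 CPM in WT cTreg and 13.5, 14.1 and 16.4 in WT eTreg, a log2 fold change of 0.56 (interval 0.12 to 1.0) with an edgeR adjusted p of 0.148. Rpl12, Rps15 and Rpl19 followed with 0.38, 0.38 and 0.28 on the log2 scale, and the Rpl12 value was 0.23 without WT eTreg 1. On the lower side the 5 most negative values, from Rpl5 (-0.15), Rps27 (-0.12), Rpl15 (-0.12), Rpl11 (-0.10) and Rpl37 (-0.10), were all small, and each 95% interval held 0.

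The intervals at the most covered regions were narrow. The 95% interval of the WT subset difference lay wholly within 1.5-fold in either direction for 71 of the 79 most covered regions (89.9%), against 73.2% of start regions and 23.3% of all tested regions, and within 2-fold for 78 of 79. These regions were picked for their coverage, on which the width of an interval depends. Over all 117 member regions the interval lay within 1.5-fold in 77, a smaller share than in start regions. Rpl22, the gene of a large subunit protein with a known role in lymphocyte development, had 51.5, 55.0 and 57.3 CPM in WT cTreg, 64.6, 65.3 and 63.9 in WT eTreg, 57.3 and 54.8 in FntbKO cTreg, and 50.2 and 60.0 in FntbKO eTreg. The WT eTreg libraries stood above all others, but the log2 fold change of 0.24 (interval 0.04 to 0.44) had an edgeR adjusted p of 0.182. Its paralogue Rpl22l1 had 103 to 105 CPM in WT cTreg and 95.4 to 114 in WT eTreg, with a log2 fold change of 0.00 (interval -0.18 to 0.19).

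**Figure D2:**
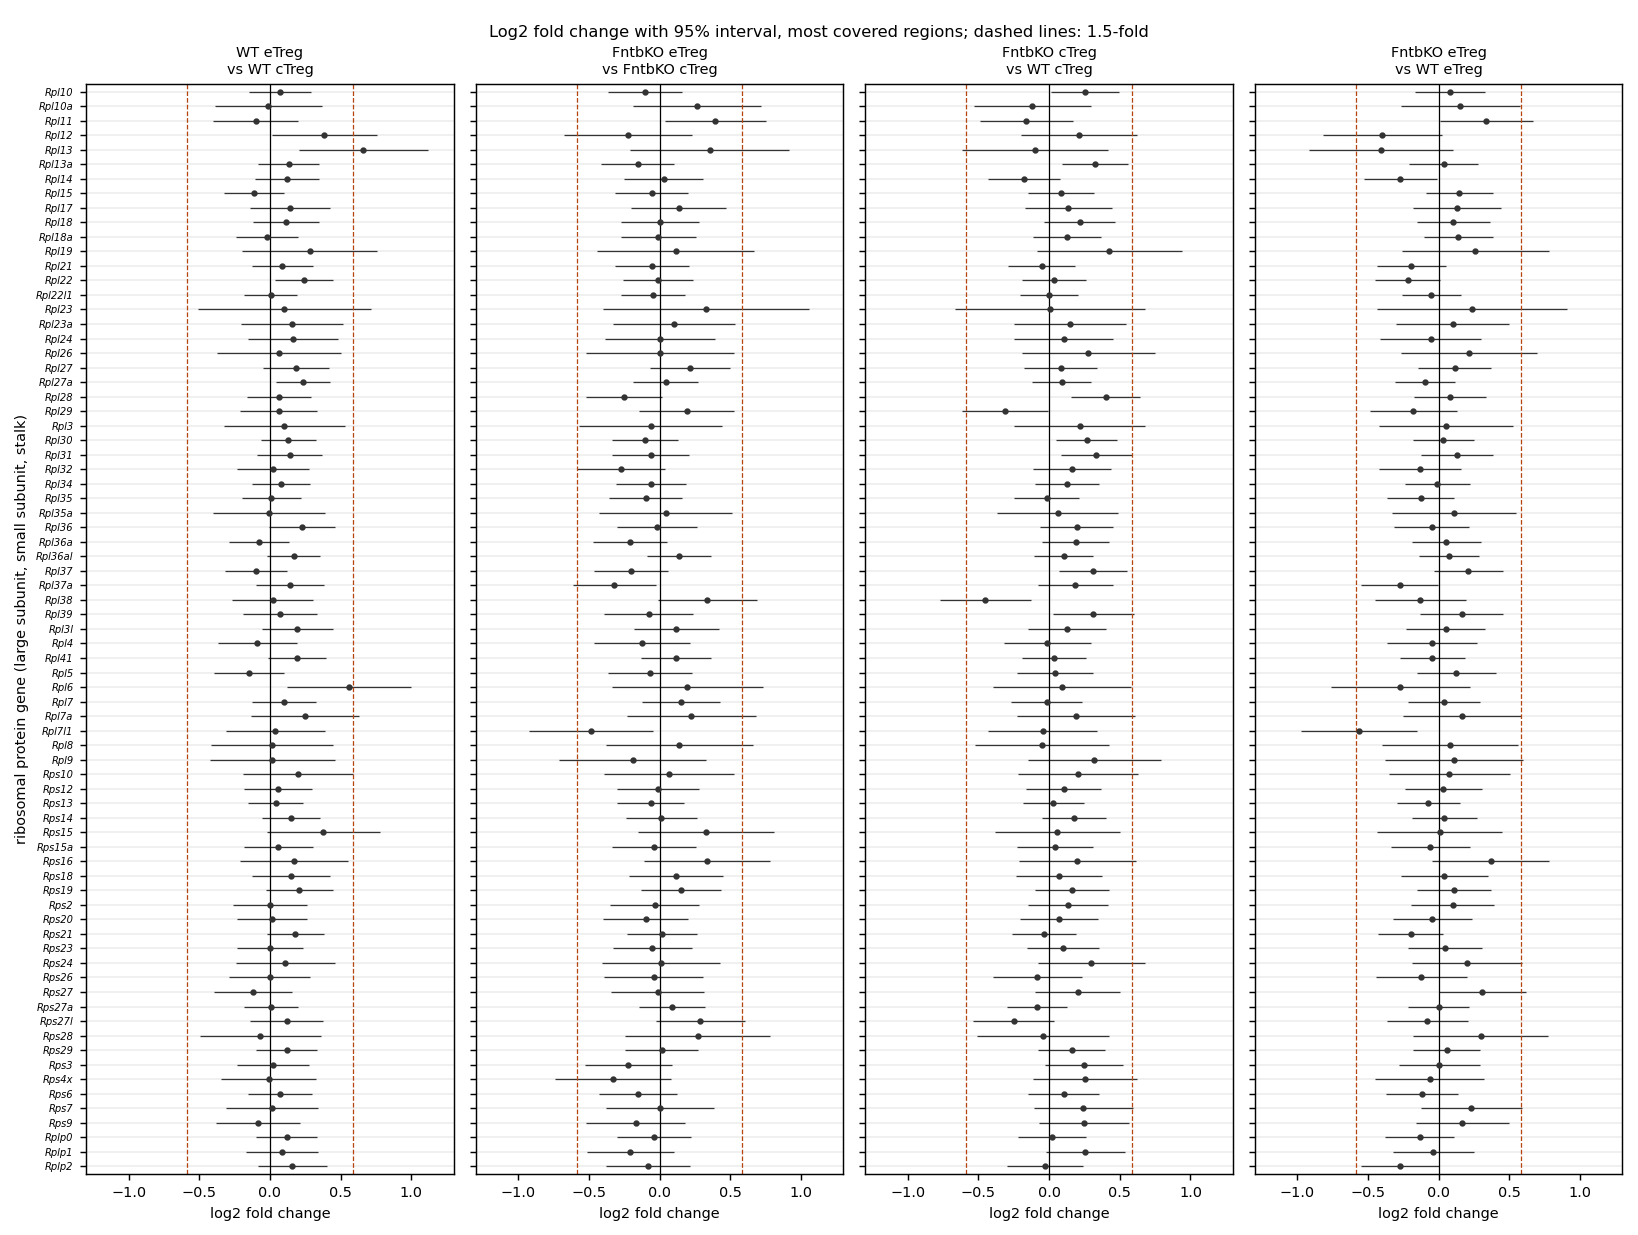
Log2 fold change (points) with 95% interval (lines) of the most covered region of 75 ribosomal protein genes in 4 comparisons, grouped by subunit; dashed lines mark 1.5-fold. Most intervals lie between the dashed lines (67, 57, 58 and 60 of 75 from left to right), and no region passed the adjusted threshold.

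A region with a subset difference of similar size in both genotypes lay beside Rpl41, which encodes the smallest ribosomal protein. This region (chr10:128547522-128548141) overlaps the edge of Rpl41 and holds the start of Zc3h10, not that of Rpl41. It had 46.2, 49.3 and 48.7 CPM in WT cTreg, 52.0, 58.3 and 67.1 in WT eTreg, 49.2 and 50.7 in FntbKO cTreg, and 63.9 and 60.0 in FntbKO eTreg. The eTreg libraries were above the cTreg libraries in both genotypes, with log2 fold changes of 0.30 (interval 0.08 to 0.51, edgeR adjusted p 0.116) in WT and 0.31 (interval 0.05 to 0.56, edgeR adjusted p 0.231) in FntbKO. In the region at the start of Rpl41 itself the values were 0.19 (interval -0.01 to 0.40) and 0.11 (interval -0.13 to 0.36). The most distal of the 7 regions was at Rps15a, 11096 bp from its start (chr7:118104750-118105051), with 0.279, 2.06 and 1.06 CPM in WT cTreg and 3.61, 3.19 and 2.71 in WT eTreg. Its log2 fold change of 1.53 (SE 0.56) had an edgeR adjusted p of 0.128. Without WT cTreg 2 it was 2.16 with an edgeR adjusted p of 0.0447, and over 18 alternatives the adjusted p ran from 0.0361 to 0.373.

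In FntbKO cells, eTreg against cTreg gave 0 called member regions of 117 in edgeR, DESeq2 and limma, against 1.35% of all tested regions and 0.365% of start regions. At an unadjusted p under 0.05 there were 5 (4.27%, 3 higher and 2 lower), against 15.2% of all tested regions (8.49% higher and 6.76% lower) and 7.78% of start regions. The median log2 fold change was 0.01, beside -0.004 for all tested regions and 0.02 for start regions. It was 0.04 with FntbKO cTreg 1 or FntbKO cTreg 2 left out and 0.02 without FntbKO eTreg 1. Of the 79 most covered regions 37 lay above 0. The groups of 2 did not overlap in 45 regions (38.5%), beside 48.6% of all tested regions. Rpl11, whose protein joins RPL5 and the 5S RNA and can bind MDM2, had 17.8 and 19.2 CPM in FntbKO cTreg and 24.6 and 24.3 in FntbKO eTreg, with 19.8, 22.3 and 20.3 in WT cTreg and 18.3, 18.9 and 21.0 in WT eTreg. The FntbKO eTreg libraries were the highest of the 10, and the log2 fold change of 0.40 (interval 0.04 to 0.75) had an edgeR adjusted p of 0.267. The partner gene Rpl5 had a value of -0.07 (interval -0.36 to 0.23). Rpl13, Rpl38 (start region), Rps16 and Rpl23 followed Rpl11 at 0.35, 0.34, 0.34 and 0.33, with intervals that held 0. Rpl37a had 45.0 and 41.8 CPM in FntbKO cTreg and 33.4 and 35.6 in FntbKO eTreg, a log2 fold change of -0.32 (interval -0.62 to -0.03) with an edgeR adjusted p of 0.276. Rpl7l1 was lower, at -0.48 (interval -0.92 to -0.04, edgeR adjusted p 0.273), and Rps4x and Rpl32 had -0.33 and -0.27 with intervals that held 0.

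FntbKO cTreg against WT cTreg gave 0 called member regions of 117 in edgeR, against 0.568% of all tested regions and 0.41% of start regions; DESeq2 and limma with cyclic loess scaling each called 1, the intragenic region of Rpl38. Here the unadjusted count was 11 (9.40%, 8 higher and 3 lower), against 12.4% of all tested regions (5.7% higher and 6.72% lower) and 12% of start regions. The median log2 fold change was 0.10, beside -0.01 for all tested regions and 0.01 for start regions, and 59 of the 79 most covered regions lay above 0. The median was 0.06 without WT cTreg 2, 0.06 without FntbKO cTreg 1 and 0.02 without both. The groups did not overlap in 36 member regions (30.8%, 25 higher and 11 lower), beside 29.7% of all tested regions. Comparisons that use the same cTreg libraries share their deviations: the WT cTreg libraries, which had the lowest member share of counts, enter both this comparison and the WT subset comparison.

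Rpl38 had the smallest p of the 117 regions in this comparison. Its protein is a small component of the large subunit, known from a mouse mutant with patterning defects of the skeleton. The gene had a region at the start (chr11:114668319-114669302), which holds the CCGGAAG and the pyrimidine tract printed above, and a second region inside the gene, 1027 bp from the start (chr11:114669607-114669992). The intragenic region had 9.63, 11.7 and 6.76 CPM in WT cTreg, 10.1, 10.0 and 10.2 in WT eTreg, 3.42 and 4.80 in FntbKO cTreg, and 6.81 and 7.57 in FntbKO eTreg. Both FntbKO cTreg libraries lay below all 8 others. The log2 fold change over WT cTreg was -1.13 (SE 0.28, 95% interval -1.70 to -0.56), with an edgeR adjusted p of 0.0572. These CPM values rest on 25 to 101 counts per library. The region at the start had 25.0, 29.6 and 24.1 CPM in WT cTreg, 29.5, 24.1 and 25.8 in WT eTreg, 17.5 and 20.4 in FntbKO cTreg, and 23.6 and 24.6 in FntbKO eTreg. Here too the FntbKO cTreg libraries were the lowest of all, with a log2 fold change of -0.45 (interval -0.77 to -0.13) and an edgeR adjusted p of 0.206.

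The Rpl38 value stood at the threshold and depended on the processing. Over 18 alternatives the log2 fold change of the intragenic region ran from -1.43 to -0.76, and its adjusted p from 0.0186 to 0.827, below 0.05 in 5 of them. It was -0.94 with an edgeR adjusted p of 0.562 without FntbKO cTreg 1, -0.95 and 0.227 without WT cTreg 2, and -1.33 and 0.0377 without WT cTreg 3. It was -0.76 with an edgeR adjusted p of 0.827 without WT cTreg 2 and FntbKO cTreg 1 together. FntbKO eTreg against FntbKO cTreg gave 0.78 (interval 0.15 to 1.41, edgeR adjusted p 0.205) in the same region, a comparison that shares the FntbKO cTreg libraries.

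**Figure D3:**
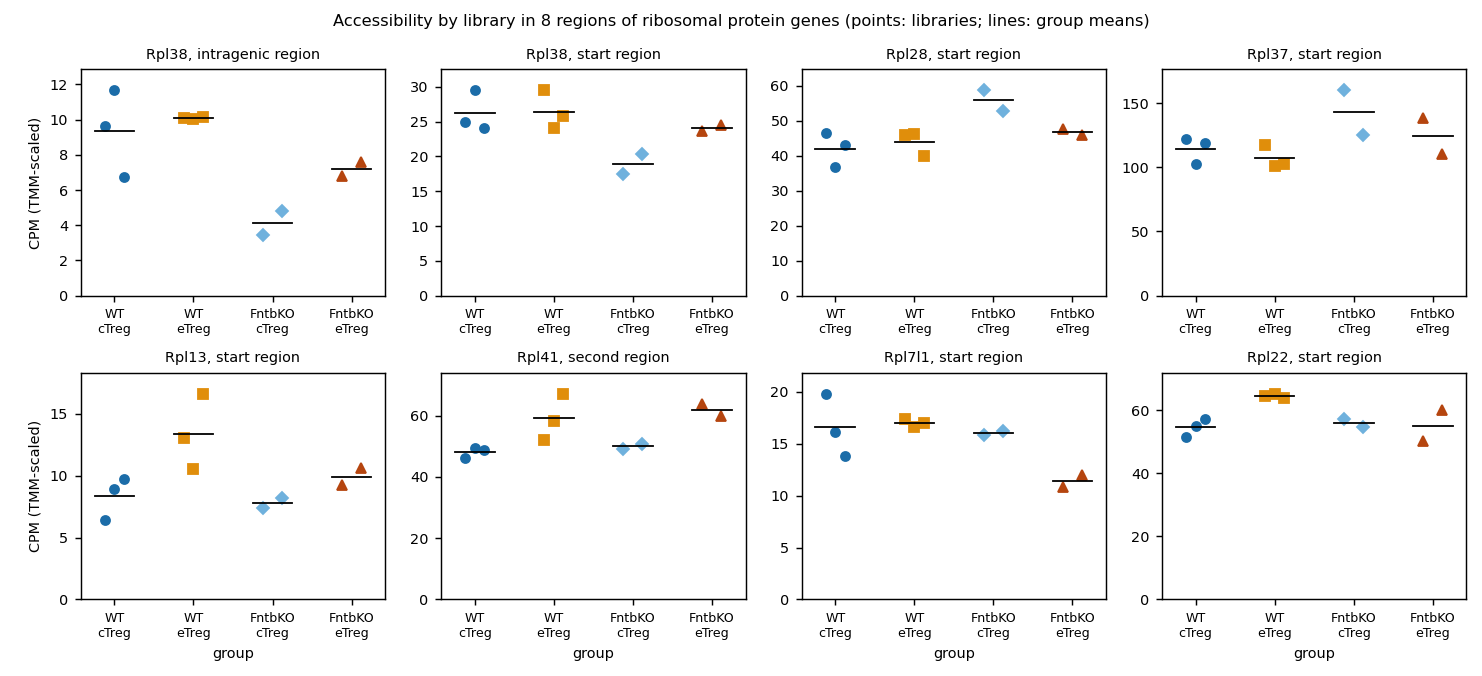
Accessibility (TMM-scaled CPM, axes from 0) in each of the 10 libraries (points) with group means (lines) for 8 regions of 7 ribosomal protein genes. Both FntbKO cTreg libraries are the lowest in the intragenic region of Rpl38 (3.42 and 4.80 CPM), and both FntbKO eTreg libraries are the lowest at Rpl7l1 (10.8 and 12 CPM).

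On the higher side, 8 regions had an unadjusted p under 0.05 and all were most covered regions of their genes. Rpl28 had 46.3, 36.6 and 43.1 CPM in WT cTreg, 45.8, 46.2 and 40.0 in WT eTreg, 58.8 and 52.9 in FntbKO cTreg, and 47.6 and 45.9 in FntbKO eTreg. The FntbKO cTreg libraries were the highest of the 10, with a log2 fold change of 0.40 (SE 0.12, interval 0.16 to 0.65) and an edgeR adjusted p of 0.127. Rpl31 had 45.2, 41.3 and 49.2 CPM in WT cTreg and 62.2 and 52.8 in FntbKO cTreg, a value of 0.33 (interval 0.08 to 0.58, edgeR adjusted p 0.234), which was 0.22 without FntbKO cTreg 1. Rpl37, the most accessible member, had a value of 0.31 (interval 0.07 to 0.55, edgeR adjusted p 0.247). Without FntbKO cTreg 1, whose 160 CPM at Rpl37 was the highest of the 10 libraries, the value was 0.13, and without FntbKO cTreg 2 it was 0.48. Rpl13a, Rpl39, Rpl30 and Rpl10 had values of 0.32, 0.31, 0.26 and 0.26 on the log2 scale, and Rpl19 and Rpl9 had 0.43 and 0.32 with intervals that held 0. Of these, Rpl39 lines the exit tunnel and Rpl10 completes the large subunit late in its assembly. Among most covered regions the low values besides Rpl38 included those of Rpl29 (-0.31), Rps27l (-0.25) and Rpl14 (-0.18). Leaving out FntbKO cTreg 1 gave -0.17 for Rpl29, and leaving out FntbKO cTreg 2 gave -0.49. The 95% interval lay within 1.5-fold in 60 of 79 members (75.9%), against 68.4% of start regions. Over all member regions it did so in 64 of 117, a smaller share than in start regions.

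FntbKO eTreg against WT eTreg gave 0 called member regions of 117 in edgeR, DESeq2 and limma, against 0.353% of all tested regions and 0.194% of start regions. The unadjusted count was 5 (4.27%, 2 higher and 3 lower), against 12.2% of all tested regions (6.41% higher and 5.83% lower) and 10.1% of start regions. The median log2 fold change was 0.04, beside -0.001 for all tested regions and -0.03 for start regions. It was 0.03 without WT eTreg 2, 0.02 without WT eTreg 3 and 0.00 without FntbKO eTreg 1. Of the 79 most covered regions 47 lay above 0. The groups did not overlap in 33 regions (28.2%), beside 31.1% of all tested regions. Rpl7l1 (start region, chr17:46782412-46783464) had 19.8, 16.2 and 13.8 CPM in WT cTreg, 17.4, 16.6 and 17.0 in WT eTreg, 15.9 and 16.2 in FntbKO cTreg, and 10.8 and 12 in FntbKO eTreg. The FntbKO eTreg libraries lay below the other 8, and the log2 fold change was -0.56 (SE 0.20, interval -0.97 to -0.15) with an edgeR adjusted p of 0.230. Its parent paralogue Rpl7 had 0.04 (interval -0.22 to 0.29). Rpl13, Rpl12, Rpl37a and Rpl6 followed at -0.41, -0.40, -0.28 and -0.27, while Rps16, Rpl11, Rps27, Rps28 and Rpl19 were the highest at 0.37, 0.34, 0.31, 0.30 and 0.26. The 95% interval lay within 1.5-fold in 64 of 79 members (81.0%), against 67.5% of start regions. Over all member regions it did so in 67 of 117, a smaller share than in start regions.

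The interaction of genotype and subset, which asks whether the subset difference itself differed between genotypes, gave 0 called member regions and 0 of all tested regions in edgeR (0.0%). The unadjusted count was 3 (2.56%, 1 higher and 2 lower) against 4.06% of all tested regions (2.45% higher and 1.61% lower) and 1.88% of start regions: Rpl11 at 0.50 (interval 0.03 to 0.96), Rpl37a at -0.46 (interval -0.84 to -0.08) and Rpl12 at -0.61 (interval -1.19 to -0.02), each with an edgeR adjusted p of 1.0. The median over the members was -0.08 on the log2 scale. The 95% interval lay within 1.5-fold for 46 of 79 members (58.2%) and within 2-fold for 73. Differences beyond 2-fold thus lay outside the interval for most of these members.

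**Figure D4:**
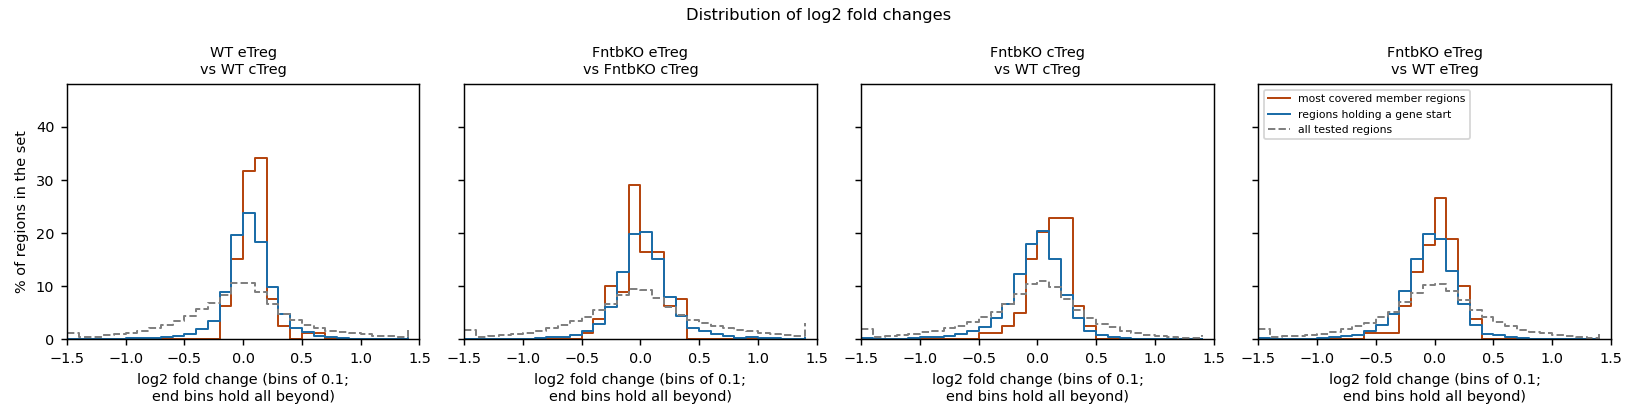
Share of regions (%) by log2 fold change in bins of 0.1 for the most covered ribosomal protein regions (79), regions holding a gene start (8770) and all 76216 tested regions, in 4 comparisons. The ribosomal protein regions and the start regions are narrower than all tested regions in each panel; in FntbKO cTreg against WT cTreg their medians are 0.10 and 0.01.

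The stalk, landmark and paralogous genes given here had small values, unlike Rpl38 and Rpl7l1, which are landmark genes described above. Rplp0 had 66.8, 55.4 and 51.4 CPM in WT cTreg, 60.6, 60.5 and 67.5 in WT eTreg, 59.9 and 57.7 in FntbKO cTreg, and 54.1 and 59.9 in FntbKO eTreg, and in the 4 comparisons the groups overlapped except that FntbKO eTreg lay below WT eTreg. Rplp1 and Rplp2 had WT subset values of 0.09 and 0.16 on the log2 scale, and FntbKO cTreg over WT cTreg values of 0.26 and -0.03. Rps6 had 62.9, 55.0 and 57.4 CPM in WT cTreg, 62.4, 58.1 and 63.9 in WT eTreg, 70.5 and 55.9 in FntbKO cTreg, and 64.5 and 49.9 in FntbKO eTreg, with overlap between all groups. Rps19, mutated in Diamond-Blackfan anaemia, had 0.21 (interval -0.03 to 0.45) for WT eTreg over WT cTreg and 0.16 (interval -0.10 to 0.42) for FntbKO cTreg over WT cTreg. Rps27 and its p53-responsive paralogue Rps27l had FntbKO cTreg over WT cTreg values of 0.20 (interval -0.10 to 0.50) and -0.25 (interval -0.54 to 0.03). Rpl36a on the X chromosome had 0.19 (interval -0.05 to 0.42) and its autosomal copy Rpl36al 0.10 (interval -0.10 to 0.31). For Rpl3, Rps4x and Rpl17 the same comparison gave 0.22, 0.25 and 0.14, each with an interval that held 0. None of these genes passed the test in any of the 4 comparisons.

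Other genes of ribosome production were read in the same fit. Of 92 regions at 39 ribosome biogenesis genes 2 (2.17%) rose in WT eTreg and none fell, a share below the 3.44% of all tested regions called in this comparison. A region at Nat10, an RNA acetyltransferase of the nucleolus, was at 1.29 ± 0.386 CPM in the 3 WT cTreg libraries and at 5.70 ± 2.22 in the 3 WT eTreg libraries (mean ± SD), a log2 fold change of 2.14 (SE 0.40, edgeR adjusted p 0.00434), called in all 18 alternatives. A region at Ddx21, a nucleolar helicase, rose by 1.40 on the log2 scale (edgeR adjusted p 0.0133), but not past the threshold without WT cTreg 1 (0.0786), WT eTreg 1 (0.0708) or WT eTreg 3 (0.0679). In FntbKO cTreg 2 of the 92 (2.17%, beside 0.568% of all tested regions) rose over WT cTreg: another region at Nat10 (1.36, edgeR adjusted p 0.0236) and one at Rrn3, a factor for RNA polymerase I (0.74, edgeR adjusted p 0.0441). Without FntbKO cTreg 1 their edgeR adjusted p was 0.332 and 0.521, and the call at Nat10 was also lost without WT cTreg 1 or WT cTreg 2. The call at Rrn3 was held in 10 of 18 alternatives, and was lost without WT cTreg 1, WT cTreg 2, WT eTreg 1 or WT eTreg 3 and under total-count or cyclic loess scaling as well.

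Among 71 regions of 29 translation factor genes 1 (1.41%) rose in eTreg of either genotype, at Eif3h, a subunit of initiation factor 3, beside 3.44% of all tested regions called in WT and 1.35% in FntbKO. It had 11.8 CPM as the mean of WT cTreg, 27.2 in WT eTreg, 7.51 in FntbKO cTreg and 20.3 in FntbKO eTreg, with log2 fold changes of 1.21 (SE 0.20, edgeR adjusted p 0.00169) in WT and 1.36 (SE 0.25, edgeR adjusted p 0.00750) in FntbKO. The WT call held in all 18 alternatives, and the FntbKO call was lost without FntbKO cTreg 1 (0.245) or FntbKO eTreg 2 (0.137). Without FntbKO cTreg 2 the FntbKO value was 2.13. Of 72 regions at 19 regulators 1 (1.39%, also below 3.44%) rose in WT eTreg, at Eif4ebp1, the mTORC1 substrate that restrains cap-dependent initiation (0.62, edgeR adjusted p 0.0291). That call was lost without WT eTreg 1, WT cTreg 2, WT cTreg 3 or WT eTreg 3, with adjusted p up to 0.206. Of 139 regions at 77 mitochondrial ribosome genes 1 (0.719%, below the same share) was called in WT: a region at Mrps35 rose in WT eTreg from a group with 0 counts, for which no fold is given, and the call was lost without WT cTreg 3 (0.0724). In FntbKO eTreg against FntbKO cTreg 2 of the 139 (1.44%, beside 1.35%) were called: a region at Mrps28 rose by 2.20 (edgeR adjusted p 0.00810) and one at Mrpl32 fell by 1.11 (edgeR adjusted p 0.0235), and neither was called without FntbKO cTreg 1 (0.245 and 0.309) or without FntbKO eTreg 2 (0.224 and 0.179). The call at Mrpl32 was also lost without FntbKO eTreg 1 (0.137). The median log2 fold change of WT eTreg over WT cTreg was 0.00 for biogenesis genes, 0.10 for translation factors, 0.06 for the mitochondrial ribosome and 0.12 for regulators.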

How the data were processed

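ATAC-seq counts of 10 libraries were used. Per the labels, the authors' table holds raw read counts per region; the deposited counts are not normalized. Per the submitters' processing notes, the tools were MACS2 2.1.1, bedtools, SAMtools, Trimmomatic 0.36 and Picard 2.9.4, with mm10 (GRCm38). The aligner, the merging of regions, any shift for the transposase cut and the handling of reads that map to several places are not given in the sources used here; the last bears on ribosomal protein genes, which have many processed pseudogenes. Region positions follow the deposited table; its base (0 or 1) is unstated. Gene spans and starts came from RefSeq tables of GRCm38.p6.

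Counts were scaled by TMM and tested in edgeR 4.0.16 (R 4.3.3) by the robust quasi-likelihood F test, with filterByExpr, 1 mean per group, all 10 libraries and 6 residual degrees of freedom. All groups share 1 estimate of the spread, since the FntbKO groups hold 2 libraries each. Benjamini-Hochberg adjustment ran over all 76216 tested regions, which include all 117 member regions, and a region was called below 0.05. CPM values use the TMM scaling, and intervals are at 95%. The procedure was tested on simulated data. For each comparison and size of change 99 or 100 regions were changed, and unchanged regions had the same mean in all groups. In the data 2623 regions were called for WT eTreg against WT cTreg, and the adjustment is stricter where fewer regions change. The simulated shares therefore need not hold for the data. At levels like those of the members, the procedure called 37.8% of simulated 1.5-fold changes for WT eTreg against WT cTreg. In the other pairwise comparisons that share was 22.0% to 23.2%. For 2-fold changes the share ran from 53.0% to 77.8% over the 4 pairwise comparisons. Libraries of a group differed by more than the sampling noise of independent single counts (chi-square per region 2.48 to 3.69). Counting both mates of a pair makes that noise larger, so these values do not measure the excess over it. Alternatives used DESeq2 1.42.0, limma 3.58.1, other scalings, filters, windows, halved counts, a replicate block and left-out libraries. The members and lists were chosen with earlier results of these data known. The text names, per comparison, the 5 highest and 5 lowest most covered regions, the levels at either end, the members without a region, landmark genes and up to 4 regions per list; regions with an unadjusted p under 0.05 were added after their values were seen. Some genes, 4 of the 79 members among them, are not reported here by name and are left out of the per-gene plots; they remain in the counts and medians.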

Additional observations from a re-analysis of the deposited data

How the results depend on the processing

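The count of called member regions stayed at 0 in all 21 alternatives for FntbKO eTreg against FntbKO cTreg, FntbKO eTreg against WT eTreg and the interaction. For WT eTreg against WT cTreg it was 1 when WT cTreg 2 and FntbKO cTreg 1 were left out together and 3 with regions within 5 kb (near Rpl32l, Rpl35a and Rps18), and leaving out single libraries gave 0 to 1. For FntbKO cTreg against WT cTreg it was 1 under cyclic loess with limma, 1 under DESeq2 and 1 with halved counts, each time the intragenic region of Rpl38, and leaving out single libraries gave 0 to 1. With the replicate block it was 3 (Rpl38, Rpl31 and Rpl37). The replicate numbers were not treated as pairing the libraries, since the labels do not say what they mark. Deviations of same-numbered libraries correlated at 0.299, 0.107 and 0.0464 between the WT subsets and 0.315 between the FntbKO subsets. Between the genotypes they correlated at 0.200 and 0.237 in cTreg and at 0.0759 and -0.00608 in eTreg. Unlike-numbered WT cTreg and WT eTreg libraries correlated at -0.236 to 0.117. Deviations were taken from group means, which ties these correlations together. In a group of 2 the deviations mirror each other, so unlike-numbered FntbKO pairs had -0.315 by construction. In a group of 3 they sum to 0, so like- and unlike-numbered values are not separate observations. These values do not settle whether same-numbered libraries share mice. The block raised calls over all tested regions to 4150, 2476, 990 and 654 in the 4 pairwise comparisons in the order given in the report, from 2623, 1032, 433 and 269; leaving out single libraries gave 426 to 3664, 5 to 2247, 41 to 724 and 9 to 507. The 28 single-region log2 fold changes followed here were picked for an unadjusted p under 0.05 in edgeR. None changed sign, but the alternatives reuse the libraries by which they were picked. Where values moved, the cause was not tested. Groups of 2 or 3 libraries and totals from 5058328 counts limit what can be seen at thinly covered regions such as Rps15a.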
